A study of Mus musculus with 6 samples.

Results

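The insulin-like growth factor (IGF) binding proteins, the IGF receptors and one docking protein were followed in intercalated cells of the mouse kidney shortly after ischemia. The 10 genes were Igfbp1, Igfbp2, Igfbp3, Igfbp4, Igfbp5, Igfbp6, Igfbp7, Igf1r, Igf2r and Irs2, out of 37583 gene identifiers in the deposited tables. They were chosen by name as a family, with earlier results of these data known, among them the lower Igfbp5 after injury, so their differences between groups are given as descriptions without p-values. All 10 were found in the tables, 8 passed the filter on low counts, and Igfbp2 and Igfbp6 did not.

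The cells were EGFP-positive cells, double-sorted from the renal medulla of B1 VATPase EGFP mice aged 12 weeks, in which EGFP marks intercalated cells, the acid- and base-moving cells of the collecting duct. The sham group had a sham operation and the IRI group had renal ischemia-reperfusion injury, in which blood flow is stopped and then restored. Cells of both groups were taken 2 h later. Each group held 3 samples, and each sample came from 4 kidneys of 2 mice. All mice carried the EGFP transgene. The genotype label of the samples also places EGFP under CX3CR1, and the tissue label reads epididymis rather than kidney.

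The reads counted in genes numbered 17421669 to 24245330 per library. Summed markers of intercalated cells, a list of 12 genes, stood at 22792 to 29139 library-scaled counts (CPM) in sham and 23706 to 29041 CPM in IRI libraries. Of 9 epididymis markers, 4 had no read in any library and the list summed to 4.22 to 13.4 CPM, so the tissue label went against the data. Cx3cr1 averaged 0.0131 CPM in sham and 0.0153 CPM in IRI libraries. Principal cell markers were also present, at 12678 to 14437 CPM in sham and 6143 to 11948 CPM in IRI.

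IGF1 and IGF2 are secreted growth factors that signal through the receptor tyrosine kinase encoded by Igf1r, and the docking protein encoded by Irs2 relays the signal of this receptor and of the insulin receptor to PI3-kinase and AKT. The receptor encoded by Igf2r takes IGF2 to the lysosome for breakdown and sorts lysosomal enzymes that carry mannose 6-phosphate. The binding proteins hold IGFs outside the cell, which can extend their life or keep them from the receptor, and proteases such as PAPP-A release the IGFs again. In the kidney, urinary IGFBP7 serves as a marker of tubular stress, and IGF signaling is known for its part in tubular growth and repair.

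The upstream sequences of 4 of the genes are shown, because they carry the results: Igfbp5 differed most in the fit, Igfbp7 was the most abundant, and Igfbp1 and Irs2 are the family's classic targets of FOXO factors, which insulin signaling holds back. Each is the 250 bases before the gene's start in RefSeq's annotation of GRCm38.p6, read 5′ to 3′ on the gene's strand. Capitals mark the motifs searched.
Igfbp5, chr1:72874866-72875115, minus strand: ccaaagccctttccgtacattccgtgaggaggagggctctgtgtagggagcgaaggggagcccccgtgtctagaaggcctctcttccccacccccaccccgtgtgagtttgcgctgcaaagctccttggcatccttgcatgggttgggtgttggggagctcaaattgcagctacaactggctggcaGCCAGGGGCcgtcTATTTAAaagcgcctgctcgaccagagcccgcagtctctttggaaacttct
Igfbp7, chr5:77408046-77408295, minus strand: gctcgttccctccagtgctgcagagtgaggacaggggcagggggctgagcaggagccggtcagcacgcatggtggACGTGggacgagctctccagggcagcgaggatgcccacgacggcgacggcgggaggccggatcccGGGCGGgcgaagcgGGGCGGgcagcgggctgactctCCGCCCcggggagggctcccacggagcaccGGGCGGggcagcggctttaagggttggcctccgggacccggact
Igfbp1, chr11:7197537-7197786, plus strand: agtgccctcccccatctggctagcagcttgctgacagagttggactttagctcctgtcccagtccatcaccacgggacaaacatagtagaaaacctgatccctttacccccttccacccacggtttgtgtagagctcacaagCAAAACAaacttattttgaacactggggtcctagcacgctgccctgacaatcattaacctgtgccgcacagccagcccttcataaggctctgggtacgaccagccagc
Irs2, chr8:11008930-11009179, minus strand: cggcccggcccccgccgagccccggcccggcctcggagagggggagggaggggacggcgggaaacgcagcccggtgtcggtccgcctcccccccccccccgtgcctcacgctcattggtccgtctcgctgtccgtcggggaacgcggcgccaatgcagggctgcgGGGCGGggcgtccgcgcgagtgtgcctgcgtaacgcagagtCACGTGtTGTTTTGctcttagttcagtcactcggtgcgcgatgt

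All 10 genes matched the RefSeq table, with 11 promoters among them, and motifs were searched on both strands of the 250 bases. The Igfbp5 sequence holds the AP-2 letters GCCNNNGGC at 64 to 56 bases before the start, found in 13.7% of all 32851 promoters and in no other promoter of the 10 genes. It also holds TATTTAA at 51 to 45 bases before the start, a motif added after that sequence had been seen and found in 4.18% of promoters. The Igfbp7 sequence holds the GC box GGGCGG in 4 places and has a GC content of 74.0%, against 58.8% for Igfbp5 and a median of 52.4% over all promoters. The GC box is in 32.7% of promoters and in those of 5 of the 10 genes. The letters CAAAACA, part of the insulin response element, are at 108 to 102 bases before the start of Igfbp1 and, on the other strand, at 37 to 31 bases before that of Irs2, and occur in 5.56% of promoters. The core ACGTG, bound by HIF, is in 16.6% of promoters and in those of Igfbp7, Irs2, Igfbp2 and Igf2r; in Irs2, Igfbp2 and Igf2r it lies in the palindrome CACGTG. The exact letters GTAAACA, searched as the FOXO core (3.17% of promoters), and the C/EBP letters TTGCNNAA (9.56%) were in none of the 11. Their absence does not cover sites of these factors with other letters. AP-1 letters TGANTCA, found in 6.75% of promoters, were in one of the Igfbp2 promoters. TATAAA, found in 12.4%, was in those of Igfbp4 and Igfbp6. In Igfbp4 it is at 28 to 23 bases before the start, and in Igfbp6, on the other strand, at 148 to 143 bases.

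Igfbp7 was by far the most abundant of the 10 genes and Igfbp5 the one that separated the groups most. Levels are the deposited RPKM values, read counts scaled for gene length and library size, which allow genes to be compared. Over sham libraries the mean RPKM decreased in the order Igfbp7, Irs2, Igfbp5, Igf2r, Igfbp4, Igf1r, Igfbp1, Igfbp3, Igfbp2 and Igfbp6. The ranges over libraries did not overlap between Igfbp7 and Irs2, Irs2 and Igfbp5, Igfbp5 and Igf2r, or Igfbp4 and Igf1r, and they overlapped between all other neighbours. In the IRI libraries Igfbp5 stood after Igf2r, and only the steps from Igfbp7 to Irs2 and from Irs2 to the next gene were free of overlap.

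**Figure D1:**
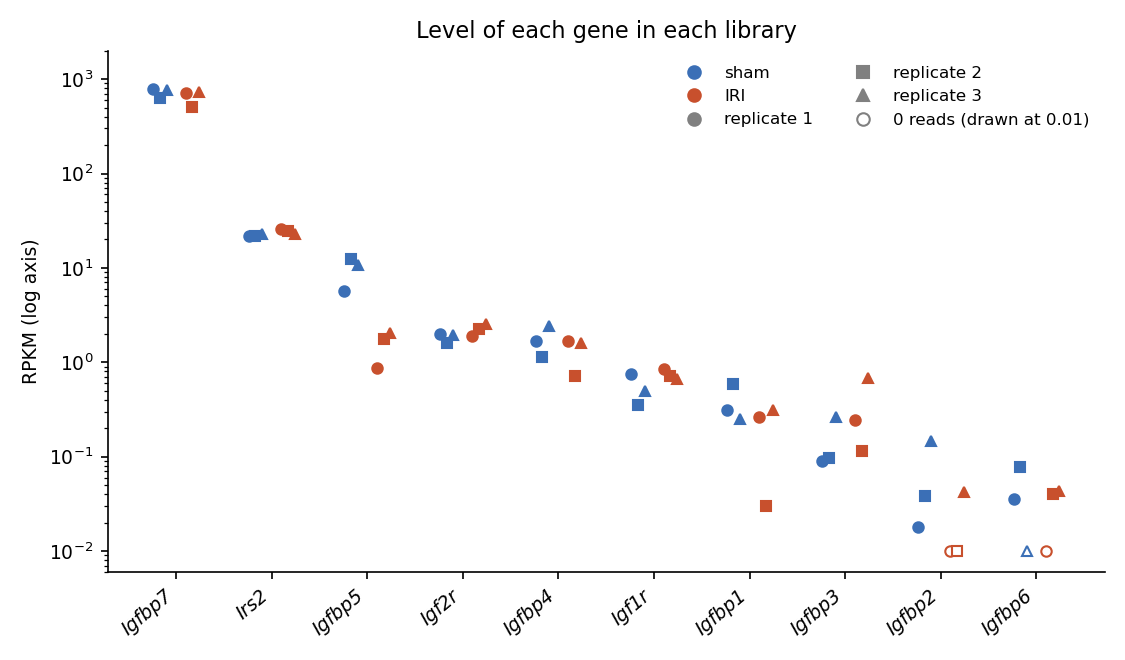
RPKM of each of the 10 genes in each library on a log axis, sham in blue and IRI in red, with the marker shape giving the replicate; open markers at 0.01 stand for 0 reads. Igfbp7 lies between 513 and 782 RPKM in all 6 libraries, and Igfbp5 is the gene whose sham and IRI points lie farthest apart among those with over 100 reads in each group.

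Differences between groups are log2 ratios of IRI to sham, given ± SE, as fitted by edgeR's quasi-likelihood model to the read counts of all 13881 genes that passed the filter, and a gene was called at a Benjamini-Hochberg adjusted p under 0.05. This fit did not pair the libraries by replicate number, and a fit with that number as a block was run as an alternative. Of the 8 tested family members, 1 was called lower (Igfbp5) and 0 higher, while over all tested genes 45.5% were called, 24.2% higher and 21.2% lower. The groups did not overlap in level for 2 of the 8, Igfbp5 and Irs2, against 56.4% of all tested genes. The median log2 fold change was 0.02 over the 8 and 0.00 over all genes, and the median size regardless of sign was 0.43 and 0.48. Because the genes were chosen with these values known, nothing is read from the counts.

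Igfbp5 encodes a binding protein that also attaches to extracellular matrix and is a substrate of PAPP-A. Its RPKM was 5.73, 12.4 and 10.6 in sham replicates 1, 2 and 3 and 0.876, 1.77 and 2.06 in IRI replicates 1, 2 and 3. Every IRI library was below every sham library, and replicate 1 was the lowest of each group. The means were 9.60 ± 3.47 (SD, n = 3) in sham and 1.57 ± 0.619 (SD, n = 3) in IRI, and the fitted log2 fold change was −2.57 ± 0.42, 5.94-fold lower in IRI, with a 95% interval of −3.59 to −1.55. These levels rested on 5942 reads in sham and 970 in IRI. Libraries of the same replicate number gave sham-over-IRI ratios of 6.55, 7.01 and 5.15. Under the 14 other settings and left-out libraries the log2 value ran from −2.87 to −2.27 and Igfbp5 stayed called lower.

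Igfbp5 is also made by fibroblasts and other stromal cells, and several marker lists differed beside it. Markers of fibroblasts, pericytes and smooth muscle, 11 genes of which 3 were tested, summed to 21.8 to 88.9 CPM in sham and 16.8 to 40.5 CPM in IRI. Of the 3, Acta2, the actin of smooth muscle, rose from 0.203 to 1.84 RPKM (log2 fold change 3.23 ± 0.66, edgeR adjusted p = 0.00472), and the pericyte proteoglycan Cspg4 fell from 0.467 to 0.0619 RPKM (−2.86 ± 0.45, edgeR adjusted p = 0.00104). Col3a1 had 0 reads, and Col1a1 averaged 0.0141 CPM in sham and 0.0475 CPM in IRI. Decorin (Dcn), the matrix proteoglycan that made up most of this sum, was not called (−0.87 ± 0.65, edgeR adjusted p = 0.325) and was at 9.66, 43.8 and 15 RPKM in sham and 7.64, 17.9 and 10.9 RPKM in IRI replicates 1 to 3. Sham replicate 2 was the highest library in both Dcn and Igfbp5. Among IRI libraries, Dcn was highest in replicate 2 and Igfbp5 in replicate 3. Sham replicate 2 was also highest for some intercalated markers, such as Hmx2 (145, 359 and 224 RPKM in sham replicates 1 to 3). For others it was not, such as Kit (48.5, 33.0 and 34.2 RPKM).

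Of 9 principal cell markers, 8 were tested and 3 fell (Aqp3, Hsd11b2 and Kcnj1), and the sums of the list, given above, did not overlap between groups. Aqp2, a water channel, made up most of these sums, at a mean of 9363 CPM in sham and 6578 CPM in IRI. Its groups overlapped and it was not called (log2 fold change −0.51 ± 0.25, edgeR adjusted p = 0.127). In sham Aqp2 stood at 6711 RPKM, against 5363 RPKM for Car2, the highest of the intercalated markers. Hsd11b2, which inactivates glucocorticoids in principal cells, went from 444 ± 133 to 153 ± 45.5 RPKM (SD, n = 3 each; log2 fold change −1.51 ± 0.29, edgeR adjusted p = 0.00549). Kcnj1, a potassium channel, went from 194 to 37.2 RPKM (−2.34 ± 0.35, edgeR adjusted p = 0.00211), and the water channel Aqp3 from 610 to 451 RPKM (−0.40 ± 0.12, edgeR adjusted p = 0.0273). All 12 intercalated markers were tested, of which 3 fell, 0 rose and 9 were not called. Over all tested genes 45.5% were called. The transcription factor gene Hmx2 went from 243 to 30.6 RPKM (−2.95 ± 0.37, 7.72-fold lower, edgeR adjusted p = 0.00104), and the receptor gene Kit from 38.6 to 21.6 RPKM (−0.80 ± 0.16, edgeR adjusted p = 0.00414). Atp6v1b1, the proton pump subunit that names the mouse line, went from 857 to 644 RPKM (−0.37 ± 0.13, edgeR adjusted p = 0.0427). Among the 9 not called, Aqp6 (0.88 ± 0.32), Slc4a9 (0.39 ± 0.18) and Foxi1 (0.36 ± 0.19) had positive values. Slc4a1 (−0.36 ± 0.26), Rhbg (−0.30 ± 0.18) and Slc26a4 (−0.28 ± 0.22) had negative ones. Car2 (0.02 ± 0.14), Atp6v0d2 (0.01 ± 0.12) and Atp6v1g3 (−0.02 ± 0.17) hardly differed. The part of these marker lists in the Igfbp5 result was not tested. In these sorted pools, fewer cells of a type and less RNA per cell cannot be told apart.

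Igfbp7 encodes a secreted protein of low affinity for IGFs that is abundant in vessel walls and basement membrane. Its RPKM was 782, 633 and 772 in sham and 709, 513 and 731 in IRI replicates 1 to 3. The groups overlapped, and replicate 2 was the lowest of each. The means were 729 ± 83.4 and 651 ± 120 (SD, n = 3 each), with a log2 fold change of −0.13 ± 0.16 and a 95% interval of −0.48 to 0.23. In sham it ranked 74 of 16455 genes that had a read in every sham library. Of all binding protein RPKM, Igfbp7 made up 99%, 97.8% and 98.3% in sham and 99.6%, 99.5% and 99.4% in IRI.

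The ratio of Igfbp7 to Igfbp5 RPKM was 136, 50.9 and 72.7 in sham and 809, 289 and 355 in IRI replicates 1 to 3, without overlap. Endothelial markers, cells in which Igfbp7 is known to be high, summed to 5.58 to 11.5 CPM in sham and 10.5 to 19.8 CPM in IRI over 10 genes, of which 5 were tested and 1 rose (Flt1). Igfbp7 alone averaged 1053 CPM in sham and 965 CPM in IRI. Leukocyte markers summed to 19.9 to 37.2 CPM in sham and 84.6 to 112 CPM in IRI. Of these 12 genes, 7 were tested and 4 rose (Ptprc, Cd68, Lyz2 and Cd14). Mean CPM rose most for Cd68 (0.903 in sham, 37.7 in IRI) and Cd14 (7.87 in sham, 32.7 in IRI). The other 3, Csf1r (log2 fold change 0.29 ± 0.47), C1qa (0.12 ± 0.86) and Cd79a (−0.36 ± 1.56), were not called. Markers of the thick ascending limb summed to 975 to 1627 CPM in sham and 903 to 1460 CPM in IRI over 6 genes. Of these, Umod alone averaged 786 CPM in sham and 629 CPM in IRI, against 89.7 and 15.1 CPM for Igfbp5. Sums were far lower for the proximal tubule (5.99 to 14.7 and 4.31 to 13.8 CPM) and podocytes (1.02 to 1.63 and 4.35 to 6.78 CPM, with Nphs1 at 0). All were below the sums of the collecting duct lists, which hold 9 and 12 genes. The part of these markers in the values of the family was not tested. In GENCODE M21 an exon of Igfbp7 overlaps one of Polr2b, an RNA polymerase subunit, on the opposite strand. Counting without strand cannot tell reads of the shared bases apart. Reads recorded as ambiguous, 1.58% (IRI replicate 1) to 1.73% (sham replicate 2) of all reads, were left out of the gene counts. Whether reads of the shared bases were among them was not tested.

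**Figure D2:**
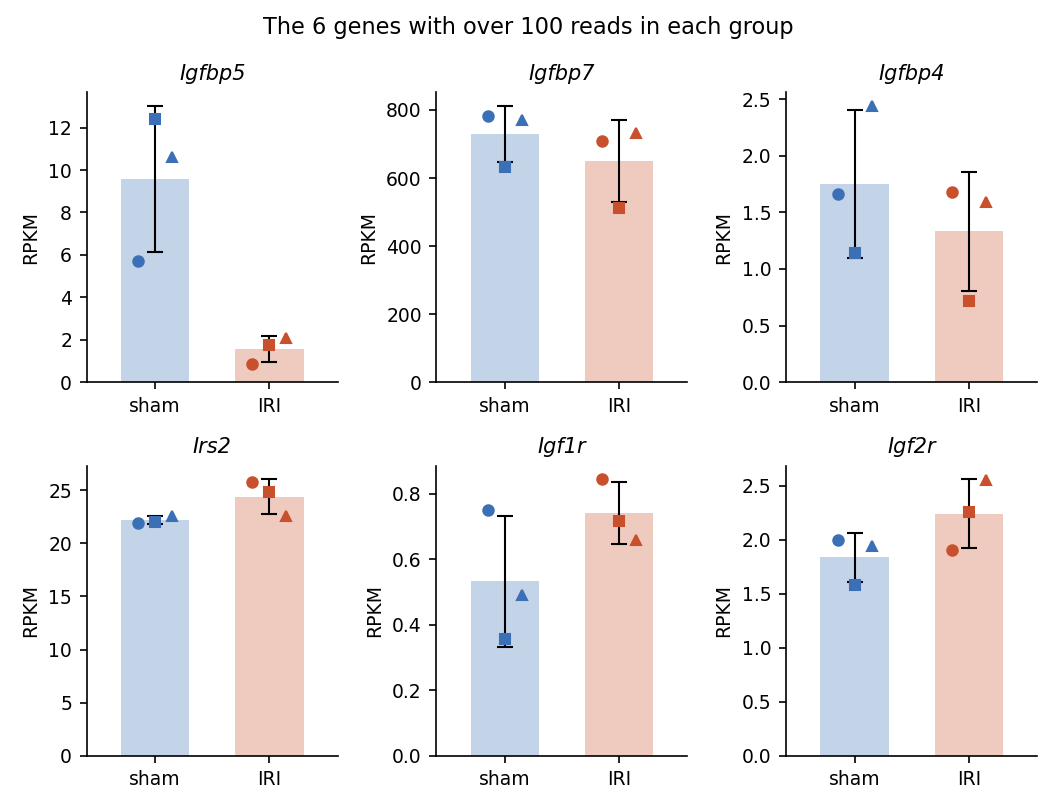
RPKM in each library for the 6 genes with over 100 reads in each group; bars are group means, error bars SD of n = 3 and marker shapes the replicates, on linear axes from 0. The Igfbp5 points of IRI (0.876 to 2.06) all lie below those of sham (5.73 to 12.4), Irs2 groups all but touch, and the groups of the other 4 genes overlap.

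Igfbp4 encodes the binding protein best known as a substrate of PAPP-A. It stood at 1.66, 1.14 and 2.44 RPKM in sham and 1.68, 0.721 and 1.59 RPKM in IRI. The groups overlapped and replicate 2 was again the lowest in each. The log2 fold change was −0.35 ± 0.37, with a 95% interval of −1.22 to 0.51, wide enough to hold a drop as well as a small rise.

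Igfbp1, the binding protein of liver and decidua that insulin represses, was near the limit of detection. It had 12, 21 and 7 reads in sham and 9, 1 and 10 in IRI replicates 1 to 3, or 0.314, 0.592 and 0.252 RPKM against 0.265, 0.0296 and 0.311 RPKM. IRI replicate 2 was far below all others and the groups overlapped. The log2 fold change was −0.90 ± 0.67 (95% interval −2.41 to 0.61) and −0.42 without IRI replicate 2 or −0.47 without sham replicate 2. For summed reads the IRI-over-sham ratio per library size was 0.522, with an exact 95% interval of 0.289 to 0.914 that covers counting error only.

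Igfbp3, the main carrier of circulating IGF, had 7, 7 and 15 reads in sham and 17, 8 and 45 in IRI. IRI replicate 3 held most of the reads of its group, and the groups overlapped. The RPKM was 0.0891, 0.0960 and 0.263 in sham and 0.244, 0.115 and 0.682 in IRI. The log2 fold change was 1.28 ± 0.71 (95% interval −0.34 to 2.91), 0.33 without IRI replicate 3 and 1.89 without sham replicate 3. Igfbp1 and Igfbp3 are neighbours on chromosome 11, and their fitted values had opposite signs.

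Igfbp2 and Igfbp6, the latter known for binding IGF2 in preference to IGF1, fell below the filter. Igfbp2 had 1, 2 and 6 reads in sham and 0, 0 and 2 in IRI, a ratio of 0.232 with a counting interval of 0.0244 to 1.12. Igfbp6 had 1, 2 and 0 reads in sham and 0, 1 and 1 in IRI, a ratio of 0.696 with a counting interval of 0.0581 to 6.08. No difference was detectable for either at this depth. Igfbp2 lies next to Igfbp5 on chromosome 1, so neighbours of 1 chromosome stood at 0.0678 and 9.60 RPKM in sham.

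Of the receptors, Igf1r was low and Igf2r higher, and neither was called. Igf1r stood at 0.750, 0.356 and 0.492 RPKM in sham and 0.844, 0.717 and 0.659 RPKM in IRI. Sham replicate 1 lay among the IRI libraries, and the other 2 sham libraries were below them. The log2 fold change was 0.51 ± 0.31 (95% interval −0.20 to 1.21), with values of 0.28 without sham replicate 2 and 0.82 without sham replicate 1.

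Igf2r stood at 2.00, 1.58 and 1.94 RPKM in sham and 1.91, 2.26 and 2.55 RPKM in IRI. The groups overlapped only through IRI replicate 1. The log2 fold change was 0.32 ± 0.16 (95% interval −0.04 to 0.68). Airn, the imprinted RNA antisense to Igf2r, had 33, 34 and 30 reads in sham and 42, 82 and 41 in IRI, and Igf2r had 14.3, 10.2 and 11.1 reads per Airn read in sham and 9.55, 5.76 and 12.3 in IRI. Airn overlaps Igf2r on the opposite strand, with no shared exon in GENCODE M21. Counting without strand cannot tell Airn reads from those of unspliced Igf2r RNA over the same bases, so the ratios carry this limit.

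Irs2, the docking protein that couples the insulin and IGF1 receptors to PI3-kinase, was the second most abundant. It stood at 21.9, 22 and 22.6 RPKM in sham and 25.8, 24.8 and 22.6 RPKM in IRI. The highest sham and the lowest IRI library were almost equal, and the sham libraries were closer together than those of any other member, with a coefficient of variation of 1.64%. The log2 fold change was 0.18 ± 0.09 (95% interval −0.03 to 0.38), and it turned to −0.02 when libraries were scaled by their size alone. An exon of Irs2 overlaps 9530052E02Rik on the opposite strand, whose reads cannot be told apart there. Whether reads of the shared bases were counted or left out as ambiguous was not tested.

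**Figure D3:**
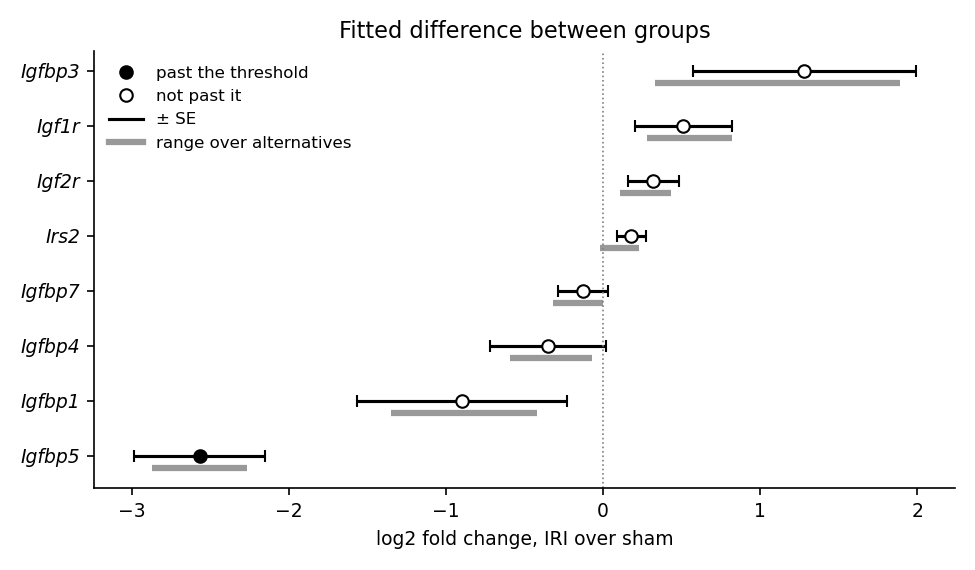
Fitted log2 fold change of IRI over sham for the 8 tested genes, with ± SE as black lines and the range over 14 other settings and left-out libraries as gray bars; a filled point was past the threshold. Igfbp5 is the lowest at −2.57, and the gray bar of Irs2 reaches across 0.

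The genes around the family were taken from 8 lists of 93 genes, of which 74 were tested, 18 rose and 17 fell. That is 47.3% of those tested, close to the 45.5% over all genes. Among the ligands, Igf1 was at 0.186 ± 0.146 RPKM in sham and 0.235 ± 0.180 RPKM in IRI (SD, n = 3 each; log2 fold change 0.39 ± 0.68, edgeR adjusted p = 0.674), and −0.44 without IRI replicate 1, its highest library. Igf2 had 3 reads in all sham and 7 in all IRI libraries. Ins1 and Ins2 had 0 reads in all libraries, which allows up to 0.0227 CPM. Igfals, the acid-labile subunit that holds IGFs in a circulating complex with IGFBP3, fell from 0.815 to 0.283 RPKM (−1.48 ± 0.48, edgeR adjusted p = 0.033), a call lost without sham replicate 2 or 3 or IRI replicate 1 or 3 (adjusted p up to 0.115).

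Of 14 genes for insulin receptors and docking proteins, 12 were tested, 3 rose and 5 fell, with a median log2 fold change of −0.31. Irs1, the sister docking protein of Irs2, was at 1.22, 2.32 and 1.40 RPKM in sham and 0.544, 0.556 and 0.471 RPKM in IRI. All IRI libraries were below all sham libraries, and Irs1 fell with a log2 fold change of −1.62 ± 0.25 (edgeR adjusted p = 0.000961). The ratio of Irs2 to Irs1 RPKM was 17.9, 9.47 and 16.1 in sham and 47.4, 44.6 and 47.9 in IRI, without overlap. Their summed RPKM was 23.1, 24.3 and 24.0 in sham and 26.3, 25.4 and 23.1 in IRI, with overlap. Irs4 had 0 reads, and Irs3 fell by 0.96 on the log2 scale (SE 0.35, edgeR adjusted p = 0.0486), a call lost with replicate number as a block (adjusted p = 0.0713) with limma-voom (adjusted p = 0.0915) and without any 1 library other than sham replicate 2.

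Insrr, the insulin receptor-related receptor, an alkali sensor of intercalated cells, was the most abundant receptor of the family. It stood at 29.4, 55.4 and 42.3 RPKM in sham and 8.56, 18.2 and 13.5 RPKM in IRI. The groups did not overlap and in each, replicate 1 was lowest and replicate 2 highest. Insrr fell with a log2 fold change of −1.62 ± 0.34 (edgeR adjusted p = 0.00835). The insulin receptor Insr stood at 3.41 ± 0.0321 RPKM in sham and 2.72 ± 0.281 RPKM in IRI (SD, n = 3 each; −0.29 ± 0.12, edgeR adjusted p = 0.073), and was called lower under upper-quartile scaling (−0.41), under library size alone (−0.49) and without IRI replicate 3 (−0.37). Insr exceeded Igf1r 4.56-, 9.63- and 6.84-fold in sham and 3.12-, 3.47- and 4.60-fold in IRI.

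The adaptors moved in both directions. Shc1, which links receptors to the RAS pathway, rose from 4.10 to 8.71 RPKM (log2 fold change 1.12 ± 0.11, edgeR adjusted p = 0.000111), and Ptpn1, the phosphatase that switches the insulin receptor off, rose from 12.4 to 23.5 RPKM (0.95 ± 0.10, edgeR adjusted p = 0.000132). Grb10, an inhibitor of the insulin and IGF1 receptors, fell from 7.94 to 3.48 RPKM (−1.15 ± 0.15, edgeR adjusted p = 0.000423), and its relative Grb14 fell from 26.9 to 18.5 RPKM (−0.50 ± 0.13, edgeR adjusted p = 0.0105). Grb2, an adaptor of RAS signaling, was not called (0.27 ± 0.11, edgeR adjusted p = 0.0728), and was called higher without sham replicate 1 (0.33, adjusted p = 0.0438) or IRI replicate 1 (0.34, adjusted p = 0.0476). Gab1 rose by 0.55 ± 0.19 (edgeR adjusted p = 0.0461), a call lost with replicate number as a block (adjusted p = 0.0546), under upper-quartile or library-size scaling, and without sham replicate 2 or 3 or IRI replicate 2 or 3 (adjusted p up to 0.2).

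**Figure D4:**
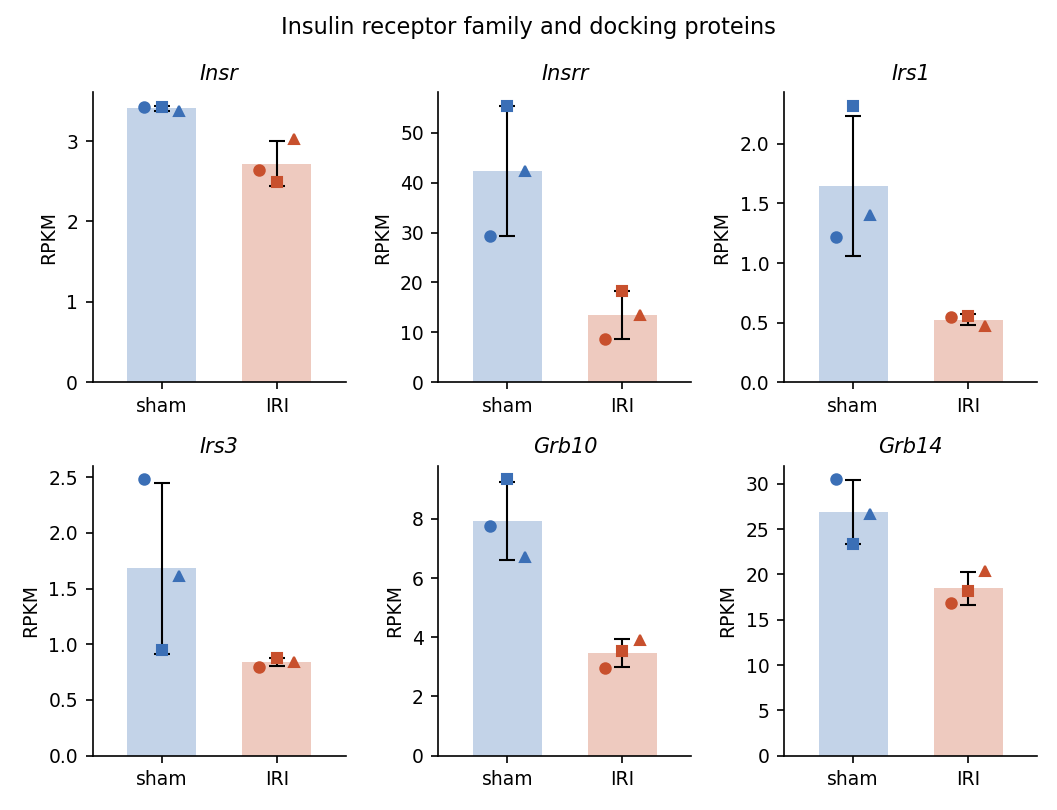
RPKM in each library for Insr, Insrr, Irs1, Irs3, Grb10 and Grb14; bars are group means, error bars SD of n = 3 and marker shapes the replicates, on linear axes from 0. In each panel the IRI points all lie below the sham points, although Insr was not called.

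Of 8 genes for proteases of the binding proteins and their inhibitors, 3 were tested and 1 rose. Pappa2, a protease of IGFBP3 and IGFBP5, went from 37 to 86 reads and from 0.0615 to 0.146 RPKM (log2 fold change 1.27 ± 0.41, edgeR adjusted p = 0.0313), a call lost without any 1 sham library or IRI replicate 3 (adjusted p up to 0.132), with DESeq2 (0.0563), with no filter (0.0508) and under library size alone (0.0571). Pappa, the protease of IGFBP4 and IGFBP5, stood at 2.33, 1.29 and 1.40 RPKM in sham and 4.57, 1.49 and 3.04 RPKM in IRI (0.89 ± 0.42, edgeR adjusted p = 0.136). It was called higher with replicate number as a block (0.81, adjusted p = 0.012), with DESeq2 (0.88, adjusted p = 0.025) and without IRI replicate 2 (1.19, adjusted p = 0.0203). Stc1, an inhibitor of PAPP-A, reached 31.4 RPKM in IRI replicate 1 and 4.90 and 7.67 RPKM in the other two, against 12.3, 4.73 and 10.8 RPKM in sham (0.69 ± 0.80, edgeR adjusted p = 0.527), and −0.51 without IRI replicate 1.

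Of 9 relatives that share the IGF-binding domain, 6 were tested and 2 rose. Ctgf, a matricellular protein, stood at 6.07, 5.57 and 9.23 RPKM in sham and 130, 68.6 and 94.0 RPKM in IRI, and rose by a log2 fold change of 3.85 ± 0.30 (edgeR adjusted p = 0.000109). Nov, of the same CCN family, rose from 0.145 to 0.771 RPKM (2.45 ± 0.36, edgeR adjusted p = 0.00074). Cyr61, another CCN gene, went from 71.4 ± 37.5 to 165 ± 52.4 RPKM (SD, n = 3 each; 1.25 ± 0.46, edgeR adjusted p = 0.074) and was called with replicate number as a block (1.36, adjusted p = 0.0233), with DESeq2 (1.24, adjusted p = 0.0356) and without sham replicate 3 (1.65). Wisp1 likewise was called only with the block (1.76, adjusted p = 0.0248) or without sham replicate 3 (2.51), and had 1.34 ± 0.86 (edgeR adjusted p = 0.261) otherwise. Crim1 (0.15 ± 0.13, edgeR adjusted p = 0.397, and −0.05 under library size alone) and Kazald1 (−0.43 ± 0.30, edgeR adjusted p = 0.27) were not called.

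Of 3 IGF2 mRNA-binding protein genes, 1 was tested, and Igf2bp2 rose from 0.616 to 1.63 RPKM (log2 fold change 1.43 ± 0.33, edgeR adjusted p = 0.00892). Downstream, 25 of 26 genes of the PI3K, AKT and mTOR pathway were tested, and 7 rose and 5 fell around a median of 0.12. The mTOR activator Rheb rose from 89.2 to 144 RPKM (0.73 ± 0.12, edgeR adjusted p = 0.00116), the kinase Gsk3b rose by 0.96 ± 0.13 (adjusted p = 0.000458) and the AKT phosphatase Phlpp2 by 0.99 ± 0.24 (adjusted p = 0.0086). The PI3-kinase subunit Pik3r3 fell by 0.84 on the log2 scale (SE 0.17, edgeR adjusted p = 0.00389). Pik3r1 (0.16 ± 0.17, edgeR adjusted p = 0.465, and −0.03 under library size alone) and Pdpk1 (0.14 ± 0.11, edgeR adjusted p = 0.343, and −0.06 under library size alone) were not called.

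Of 16 other FOXO targets, 13 were tested, and 3 rose and 3 fell around a median of −0.18. Pdk4, the kinase that closes pyruvate dehydrogenase, rose from 7.31 to 27.9 RPKM (log2 fold change 1.96 ± 0.28, edgeR adjusted p = 0.00124), and the repressor Bcl6 from 0.871 to 1.96 RPKM (1.20 ± 0.19, edgeR adjusted p = 0.000961). Gadd45a, a stress gene, rose from 163 to 377 RPKM (1.25 ± 0.28, edgeR adjusted p = 0.00986), a call lost with no filter on low counts (1.21, adjusted p = 0.06). The transcription factor Klf15 fell from 30.9 to 9.17 RPKM (−1.72 ± 0.34, edgeR adjusted p = 0.00607). Txnip (0.14 ± 0.14, edgeR adjusted p = 0.449, and −0.06 under library size alone) and Ccng2 (−0.18 ± 0.17, edgeR adjusted p = 0.439) were not called. Igfbp1 and Irs2, themselves FOXO targets, thus stood beside genes of both directions.

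Igf2r also carries lysosomal enzymes, and all 12 genes of mannose 6-phosphate sorting were tested, of which 1 rose and 3 fell. Nagpa (log2 fold change −0.85 ± 0.18, edgeR adjusted p = 0.00418) and Gnptab (−0.67 ± 0.20, edgeR adjusted p = 0.0213, and 0.0715 without IRI replicate 1), which make the mannose 6-phosphate tag, fell, as did the adaptor Gga2 (−0.66 ± 0.14, edgeR adjusted p = 0.00421). The cargo protease Ctsd rose from 614 to 810 RPKM (0.44 ± 0.12, edgeR adjusted p = 0.0157), a call lost without sham replicate 3 (adjusted p = 0.0743), under upper-quartile scaling (0.0564) and under library size alone (0.132). Ctsl, another cargo protease, was not called (0.44 ± 0.16, edgeR adjusted p = 0.0518), and was called higher with replicate number as a block (adjusted p = 0.00932), with DESeq2 (0.023), limma-voom (0.0475) or no filter (0.0372), and without sham replicate 2 (0.0266) or IRI replicate 1 (0.0184).

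**Figure D5:**
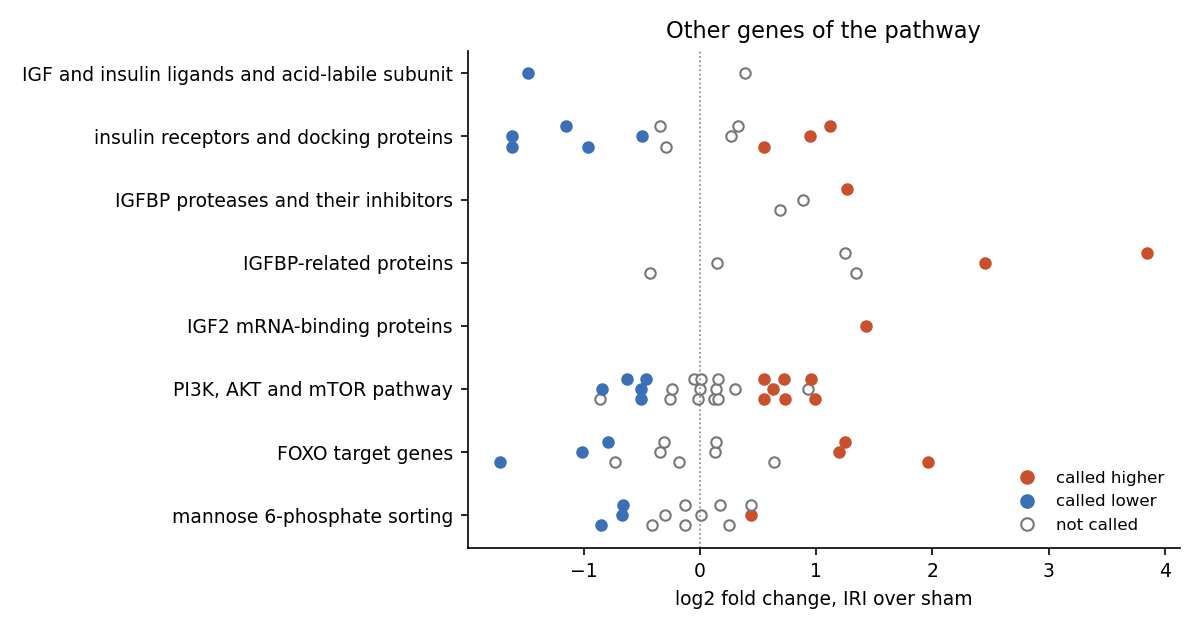
Fitted log2 fold change of IRI over sham for each tested gene of the 8 lists, 1 row a list; red points were called higher, blue points lower and open points not called. The insulin receptor and docking row holds 5 blue and 3 red points, and the point farthest right is Ctgf at 3.85.

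The genes whose log2 CPM followed Igfbp5 most closely over the 6 libraries, among 8915 genes that averaged 3 or more on that scale, were Zfp395 (Pearson's r = 0.999), Abcc5 (0.998), Nme4 (0.997), Urod (0.997) and Pdzk1ip1 (0.996). All 5 were lower in mean CPM in IRI than in sham, and Pdzk1ip1, a membrane protein of kidney tubules, went from 1513 to 778 CPM. The 6 points share the libraries and the group difference, so the values describe likeness of pattern and nothing more. For Igfbp3 the closest were Tesc (0.966), Hmgb2 (0.965), Prrc2b (0.953), Slc25a45 (0.95) and Wfdc2 (0.944), against a profile of at most 45 reads per library.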

How the data were processed

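RNA from sorted cells was amplified with a SMARTER kit and sequenced on an Illumina HiSeq2500, per the labels' protocols. The submitters' processing notes name STAR, HTSeq, edgeR and the build mm9, without versions. The deposited counts are whole reads per gene, made without regard to strand per the file names. The authors' deposited RPKM equalled count over gene length and an effective library size of 0.917 to 1.09 of the gene total. Of all reads recorded, 49.1% to 50.7% were counted in genes, and the entries that name no gene (49.3% to 50.9%) were left out. Samples were grouped by their titles.

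The test used edgeR 4.0.16 (R 4.3.3; filterByExpr, TMM, quasi-likelihood fit with the group as its only term, Benjamini-Hochberg adjustment over 13881 genes, threshold 0.05). SEs came from the F statistic. Alternatives were RLE, upper-quartile and library-size scaling, no filter, a stricter filter (50 reads in 3 samples), DESeq2 1.42.0, limma-voom (limma 3.58.1), the replicate block and leaving out each library. The code was tested on simulated counts. Nothing in the labels says whether the pools of one group were prepared independently, and p-values cover only the spread seen between them. Same-numbered samples deviated together from their group means (correlations 0.20, 0.13 and 0.17, against −0.13 to 0.00 for other pairs), so the numbers were taken to pair the samples. Deviations from a mean cancel out within each group, so these correlations depend on each other and cannot decide whether the samples were paired. The labels do not say what the numbers mark, and the pairing is an assumption. The main fit has no term for these pairs, so its SEs, intervals and calls leave the pairing out. Only the replicate block uses it, and the calls of named family and pathway genes that it changed are given with each gene.

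The family members, gene lists and tests were chosen with earlier results of these data known. Genes of the lists were named by rule: up to 4 called and 2 other members per list, all tested members of lists of at most 9 genes. Not every gene that the rule names is reported here. Irs3, Gab1, Ptpn1, Grb14, marker genes and genes with few reads were named after their values were seen. Promoters are on GRCm38.p6, another build than the counts, and no coordinate was converted.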

Additional observations from a re-analysis of the deposited data

How the results depend on the processing

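Igfbp5 was the only member called, and called lower, in all 14 alternatives, and 0 members were called higher in any. The alternatives reuse the same libraries, and the lower Igfbp5 was known when the family was chosen. The repeated calls therefore describe dependence on processing and are no further evidence. No other member was called in any alternative. The share of genes called was 45.5%, and 27.5% with no filter and 34.2% without sham replicate 3. The median log2 fold change of all tested genes shifted by −0.122 under upper-quartile scaling and −0.201 under library size alone. Higher calls made up 53.3% of calls with TMM, 42.0% under upper-quartile scaling (2748 higher, 3789 lower) and 35.6% under library size alone (2400 higher, 4337 lower). Under library size alone the pathway lists had 26 genes called lower and 12 higher, against 17 and 18, and the log2 fold changes of Irs2 (−0.02), Crim1 (−0.05), Pdpk1 (−0.06), Pik3r1 (−0.03) and Txnip (−0.06) turned negative. Leaving out 1 library at a time gave log2 fold changes of −0.02 to 0.25 for Txnip, −0.44 to 1.20 for Igf1 and −0.51 to 1.09 for Stc1. The cause was not tested. With the replicate block, Igfbp5 was at −2.59, 3368 genes rose and 3095 fell, and of the family and pathway genes named in the text the calls of Irs3, Gab1, Pappa, Cyr61, Wisp1 and Ctsl changed and no other did. Each alternative was fitted to all genes that passed its filter, marker genes among them, but the values of marker genes are not reported here. The calls of marker genes are therefore those of the main fit alone. Of 696 values for 50 pathway genes over the alternatives, 620 kept direction and call, 47 lost a call, 22 gained one and 7 changed sign. Depth limits Igfbp1, Igfbp2, Igfbp3 and Igfbp6, whose reads over both groups numbered under 100. The stricter filter left no value for Igfbp1 and Igfbp3.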
